A study of Mus musculus with 12 samples.

Results

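Transcripts of the mitochondrial carrier family SLC25 were followed in the left ventricle of 12 C57BL/6 mice. Members were all genes of the deposited expression table whose symbol starts with Slc25a, which gave 44 of 17052 genes. The rule used the symbol alone, but it was chosen with earlier results of these data known. Mice underwent transverse aortic constriction (TAC) or a sham operation; TAC is a narrowing of the aortic arch against which the heart must pump. Surgery was at 8 weeks of age, and all were sampled at 12 weeks. The groups were Sham+control, TAC+control, Sham+pimobendan and TAC+pimobendan, with 3 mice each and 1 library per mouse. Pimobendan, a calcium sensitizer and phosphodiesterase inhibitor used in heart failure, was given by mouth at 1 mg/kg/day for 4 weeks, and no drug is named for the control mice. The study addressed the effect of the drug on gene expression in pressure-overload hypertrophy.

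SLC25 carriers are nuclear-encoded proteins that sit, with few exceptions, in the inner mitochondrial membrane and exchange nucleotides, phosphate, carboxylates, amino acids, acylcarnitines, iron and cofactors between cytosol and matrix. Heart muscle makes most of its ATP in mitochondria, so the carriers that bring in ADP and phosphate and export ATP are among its abundant membrane proteins. Others feed fatty acids to oxidation or move reducing equivalents through the malate-aspartate shuttle.

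Values are FPKM, fragments per length of transcript and number of mapped fragments, which allow levels of different genes to be compared per length. Counts were not given, which leaves sequencing depth unknown, and an entry of 0 may be a failed estimate. FPKM summed to between 593203 and 643478 per library. Heart muscle content was checked on cardiomyocyte markers (Myh6, Tnnt2, Tnni3, Actn2, Myl2, Pln and Ryr2). All 7 were present, with a summed level between 39054 and 46863 FPKM per library. No list for another heart chamber was read, so left ventricular origin rests on the labels. Summed endothelial markers ran from 227 to 397 FPKM, fibroblast markers from 267 to 439.6, macrophage markers from 90.8 to 146, and the 4 adipocyte markers in the table were each under 1 FPKM in every library. Red cell markers varied more, with 1564 to 3076 FPKM in Sham+control, 462 to 1917 in Sham+pimobendan, 4213 to 6720.5 in TAC+control, against 1154 to 2295 in TAC+pimobendan. In these bulk samples fewer cells of a type and less RNA per cell cannot be told apart. Libraries also differed in a trend with GC content. For each library the GC content of genes was set against how far they stood from their 12-library average, and the rank correlation (Spearman's rho) was -0.19, -0.51 and -0.52 in TAC+pimobendan and between -0.34 and 0.52 in the other 9 libraries.

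Carrier transcripts spanned from a mean of 4012 FPKM to values near 0. Of the 44 members, 38 reached at least 1 FPKM in at least 3 libraries and were tested. Together the members made up between 1.17% and 1.32% of the summed FPKM of a library. The ADP/ATP carrier Slc25a4 alone held 51.5% of the members' mean FPKM and ranked 14 among all genes, and the phosphate carrier Slc25a3 held 26.9% and ranked 35. With the oxoglutarate/malate carrier Slc25a11 and the second ADP/ATP carrier Slc25a5, 4 genes made up 88.6%, and the 10 highest made up 96.4%. The remaining tested members had means from 26.0 FPKM for Slc25a28 down to 1.27 for Slc25a14.

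**Figure D1:**
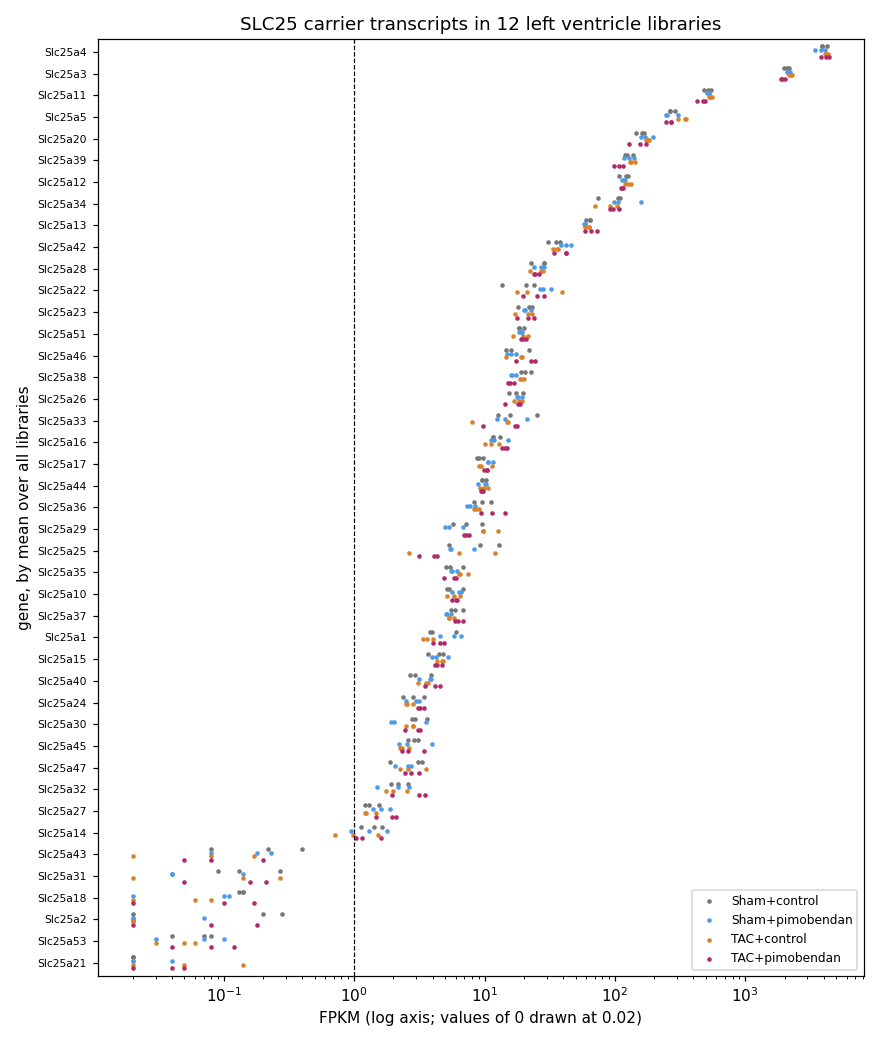
FPKM of 43 of the 44 members in the 12 libraries on a log axis, with each point 1 library, colours marking the groups and the dashed line at 1 FPKM. Values of 0 are drawn at 0.02. Slc25a4 and Slc25a3 stand apart at the top, and 6 members lie left of 1 FPKM in every library.

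The 6 members under 1 FPKM in every library were not tested. Slc25a43 ran from 0 to 0.40 FPKM. Slc25a31, the ADP/ATP carrier known from germ cells, ran from 0 to 0.27. Slc25a18, a glutamate carrier, had at most 0.17, the ornithine carrier Slc25a2 at most 0.28, Slc25a53 at most 0.12 and the oxodicarboxylate carrier Slc25a21 at most 0.14. Slc25a2 was listed at 0 in 7 libraries, among them all 3 of TAC+control, and Slc25a21 in 7, among them all 3 of Sham+control.

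None of the 38 tested members passed the test in any of the 5 comparisons. The test was limma on log2(FPKM + 1) with Benjamini-Hochberg adjustment over 11415 genes, with calls made at adjusted p under 0.05. For TAC+control minus Sham+control, limma called 0 of 38 members, beside 0% of all genes. For TAC+pimobendan minus TAC+control it called 0 of 38, beside 3.27% of all genes (3.15% higher and 0.114% lower), and the smallest adjusted p among members was 0.0502. For Sham+pimobendan minus Sham+control it called 0 of 38, beside 0%. For TAC+pimobendan minus Sham+pimobendan it called 0 of 38, beside 4.89% (4.64% higher and 0.245% lower), with a smallest adjusted p of 0.0532. For the interaction (the TAC effect with drug minus that without) it called 0 of 38, beside 0%. At an unadjusted limma p under 0.05 the members numbered 2, 9, 4, 6 and 7 in the same order, or 5.26%, 23.7%, 10.5%, 15.8% and 18.4% of 38. The same shares over all genes were 8.33%, 26.6%, 4.54%, 22.9% and 20.3%. The median 95% confidence interval of a member's log2 fold change reached 0.26 to either side in comparisons of a pair of groups. For members with an interval at least this wide, smaller differences were not resolved. These intervals are not adjusted for the number of genes tested.

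The count of 0 with pimobendan after TAC depended on single libraries. Without TAC+pimobendan replicate 1 limma called 4 members (Slc25a5, Slc25a3 and Slc25a39 lower and Slc25a36 higher), or 10.5% of 38, beside 10.4% of all genes. Without Sham+control replicate 1 it called 2 (Slc25a5 and Slc25a39), or 5.26%, beside 5.80%, and without Sham+pimobendan replicate 3 it called 1 (Slc25a5), beside 2.29%. For TAC under pimobendan 1 member, Slc25a36, was called without TAC+pimobendan replicate 1 (beside 10.7% of all genes) and without Sham+control replicate 1 (beside 6.50%). It was also the 1 member called for the interaction without TAC+pimobendan replicate 1, beside 6.78%.

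The ADP/ATP carriers exchange matrix ATP for cytosolic ADP. Slc25a4 (NCBI Gene 11739; GRCm38 chromosome 8, 46207168 to 46211062), the main isoform of heart and skeletal muscle, had 3883, 4230.1 and 3852 FPKM in Sham+control, 4093, 3438 and 3837 in Sham+pimobendan, 4144, 4272 and 4061 in TAC+control, against 3784, 4183 and 4363 in TAC+pimobendan. All 4 groups overlapped, and its log2 fold changes were 0.061 ± 0.078 (SE) for TAC without drug and -0.019 ± 0.078 for pimobendan after TAC (95% confidence interval -0.19 to 0.15), the latter turning positive on TPM (0.054) and under quantile normalization (0.084). Slc25a5 (NCBI Gene 11740; chromosome X, 36795597 to 36798808), the more widely expressed isoform, had 265.2, 264.7 and 289.5 FPKM in Sham+control, 251, 247 and 305 in Sham+pimobendan, 354, 346 and 306 in TAC+control, against 269, 245 and 268 in TAC+pimobendan. All TAC+control mice lay above the other 9 mice. The mean was 273 ± 14.2 FPKM (SD, n = 3) in Sham+control, 335 ± 25.4 in TAC+control, against 261 ± 13.7 in TAC+pimobendan. The log2 fold change was 0.29 ± 0.091 for TAC without drug (limma adjusted p = 0.476) and -0.36 ± 0.091 for pimobendan after TAC (95% confidence interval -0.56 to -0.16, limma adjusted p = 0.0502); both comparisons share the TAC+control mice. A processed copy, Slc25a5-ps, is annotated on chromosome 14, so reads of Slc25a5 may have been split between them and its level is uncertain to that extent. Slc25a4 held 93.6%, 94.1% and 93.0% of the FPKM of the pair in Sham+control, 92.1%, 92.5% and 93.0% in TAC+control, against 93.4%, 94.5% and 94.2% in TAC+pimobendan. Its mean level was 14.1 times that of Slc25a5.

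The promoters of 4 carriers are shown because the pair of ADP/ATP carriers differs most in level among the paralogs compared, Slc25a3 is the other dominant transcript, and Slc25a36 was the member furthest above TAC+control in TAC+pimobendan. Each run gives the 250 bases before an annotated start from RefSeq (GRCm38.p6), 5′ to 3′ on the gene's strand. For Slc25a3 only the first 171 of these are given, since the other 79 lie inside the annotated span of the gene. Capitals mark matches on either strand to the GC box GGGCGG, the CCAAT box CCAAT or the palindromic motif of NRF1, and none of the matches overlap. The windows are chr8:46211063-46211312 (minus strand) for Slc25a4, chrX:36795347-36795596 (plus) for Slc25a5, chr10:91124047-91124217 (minus) for Slc25a3 and chr9:97111042-97111291 (minus) for Slc25a36.
Slc25a4: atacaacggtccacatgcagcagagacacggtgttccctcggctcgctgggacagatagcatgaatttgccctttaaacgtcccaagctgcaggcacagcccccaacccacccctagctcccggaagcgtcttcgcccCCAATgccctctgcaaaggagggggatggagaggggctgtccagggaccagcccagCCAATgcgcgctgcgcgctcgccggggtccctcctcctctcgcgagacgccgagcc
Slc25a5: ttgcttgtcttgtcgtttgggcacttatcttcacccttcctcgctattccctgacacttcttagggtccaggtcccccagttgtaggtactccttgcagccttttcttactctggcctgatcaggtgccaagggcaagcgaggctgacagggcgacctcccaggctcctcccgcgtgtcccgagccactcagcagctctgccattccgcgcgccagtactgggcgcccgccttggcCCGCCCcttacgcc
Slc25a3: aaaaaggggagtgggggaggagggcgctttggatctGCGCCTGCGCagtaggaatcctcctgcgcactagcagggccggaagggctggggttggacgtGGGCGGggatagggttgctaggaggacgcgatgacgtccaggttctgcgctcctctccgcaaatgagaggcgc
Slc25a36: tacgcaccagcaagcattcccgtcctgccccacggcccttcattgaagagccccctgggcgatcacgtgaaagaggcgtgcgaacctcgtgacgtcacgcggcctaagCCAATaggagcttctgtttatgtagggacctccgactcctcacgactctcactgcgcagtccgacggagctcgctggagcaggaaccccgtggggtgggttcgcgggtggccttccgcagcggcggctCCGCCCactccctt
The window of Slc25a4 held 2 CCAAT boxes and no GC box. Slc25a5 had 1 GC box, Slc25a3 had 1 GC box and 1 NRF1 match, and Slc25a36 had 1 of the GC box and 1 of the CCAAT box. Windows were found for 34 members, 44 windows in all. A GC box was present in 31 of these (70.5%), against 32.7% of all 32851 windows in the table, and a CCAAT box in 21 (47.7%), against 33.8%. NRF1 matches were found in 2 member windows (4.55%, against 3.74%). The short site of oestrogen-related receptors, AAGGTCA, was found in 1 (2.27%, against 4.08%), that of Slc25a34. The ETS motif CCGGAAGT was found in 1 (2.27%, against 2.88%), that of Slc25a20. Some members had more than 1 window, and shares for the genes tested alone were not read. The higher shares of GC and CCAAT boxes therefore cannot be called particular to the carriers. A match is a description of these letters and no evidence of binding.

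Slc25a3 (NCBI Gene 18674; chromosome 10, 91116574 to 91124046) brings phosphate into the matrix for ATP synthesis. It had 1969.9, 2154 and 2082 FPKM in Sham+control, 2133, 2075 and 2209.6 in Sham+pimobendan, 2279.6, 2167 and 2232 in TAC+control, against 2013, 1909 and 1882 in TAC+pimobendan. TAC+control mice lay above Sham+control, and TAC+pimobendan mice lay below both TAC+control and Sham+pimobendan. Its spread was the lowest of the 38 members, with a pooled SD within groups of 0.051 on the log2 scale. The log2 fold change was 0.11 ± 0.060 for TAC without drug (limma adjusted p = 0.664; -0.0018 under quantile normalization), -0.20 ± 0.060 for pimobendan after TAC (95% confidence interval -0.33 to -0.072, limma adjusted p = 0.066) and -0.15 ± 0.060 for TAC under pimobendan (limma adjusted p = 0.175). With each library's GC trend removed the value for pimobendan after TAC was -0.44, and under quantile normalization it was -0.093. The interaction, -0.25 ± 0.085, was among the 2 members with the smallest p and did not pass (limma adjusted p = 0.134).

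**Figure D2:**
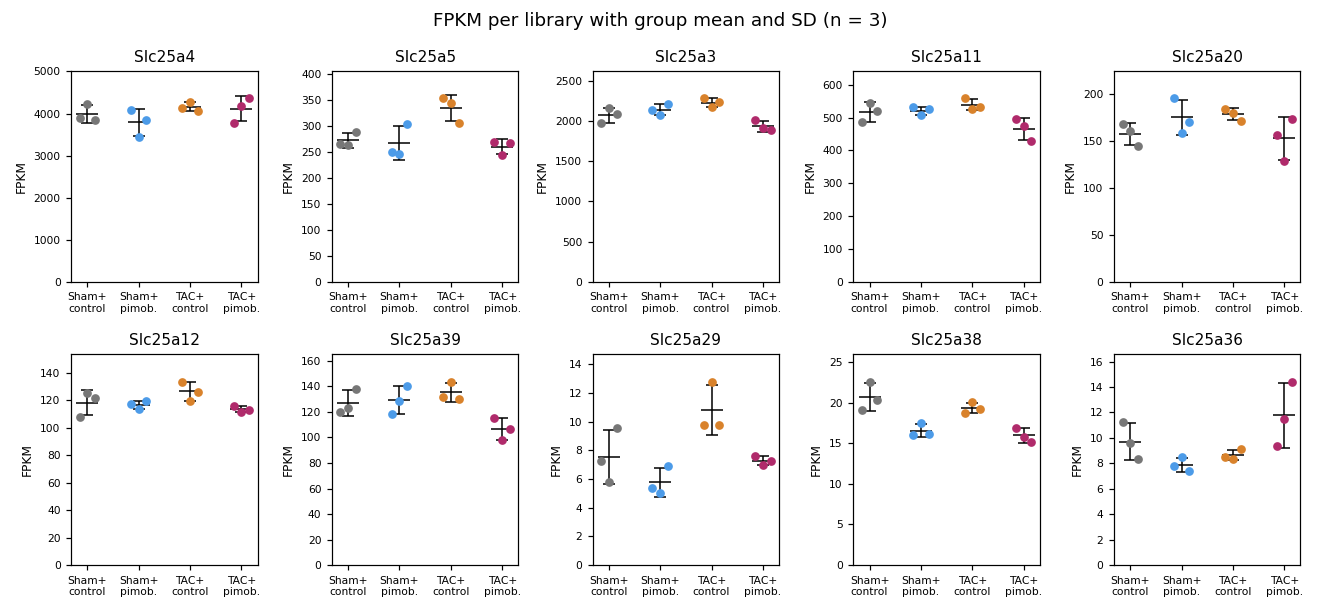
FPKM per library of 10 carriers, each point 1 mouse, with the group mean and SD (n = 3) in black and the axis from 0. TAC+control mice are above TAC+pimobendan mice without overlap for Slc25a5, Slc25a3, Slc25a11, Slc25a12, Slc25a39, Slc25a29 and Slc25a38, and below them for Slc25a36.

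The ATP-Mg/phosphate carriers load or empty the matrix of adenine nucleotides and respond to calcium. Slc25a23 had 22.1, 18.02 and 23.2 FPKM in Sham+control, 20.4, 19.98 and 22.9 in Sham+pimobendan, 17.2, 23.3 and 21.6 in TAC+control, against 23.9, 21.5 and 17.8 in TAC+pimobendan. Slc25a24 had 3.44, 2.38 and 2.83, then 2.51, 3.17 and 2.96, then 2.51, 2.54 and 2.83, and 3.07, 3.42 and 3.20 FPKM in the same order of groups. Its TAC+pimobendan mice lay above its TAC+control mice (a log2 difference of 0.22, which was -0.047 with the GC trend removed), while the groups of Slc25a23 all overlapped. Slc25a25 was the member with the widest spread between mice of a group. It had 12.98, 9.17 and 5.32 FPKM in Sham+control, 8.28, 5.49 and 5.40 in Sham+pimobendan, 6.33, 2.63 and 11.99 in TAC+control, against 4.29, 3.13 and 4.12 in TAC+pimobendan. Its pooled SD within groups was 0.57 on the log2 scale, against a median of 0.141 over the 38 members. The log2 fold change for pimobendan after TAC was -0.54 ± 0.38 (95% confidence interval -1.36 to 0.28), within the spread between mice. It was -1.02 without TAC+control replicate 2 and -0.098 without TAC+control replicate 3. Slc25a23 made up 64.1% ± 8.74 of the FPKM of the trio in Sham+control and 69.5% ± 3.95 in Sham+pimobendan, then 69.1% ± 11.6 in TAC+control, against 74.6% ± 3.29 in TAC+pimobendan (SD, n = 3).

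Carriers of carboxylates and of aspartate and glutamate move substrates of the citric acid cycle and carry the malate-aspartate shuttle. Slc25a11, the oxoglutarate/malate carrier of that shuttle, had 486, 546 and 521 FPKM in Sham+control, 531, 508 and 524 in Sham+pimobendan, 559, 527 and 533 in TAC+control, against 495, 473 and 429.5 in TAC+pimobendan. TAC+pimobendan mice lay below TAC+control and Sham+pimobendan, with log2 fold changes of -0.21 ± 0.070 (limma adjusted p = 0.0845) and -0.16 ± 0.070 (limma adjusted p = 0.188). With each library's GC trend removed these values were -0.22 and -0.074. The aspartate/glutamate carrier Slc25a12, the isoform of muscle and brain, had 108, 125 and 122 FPKM in Sham+control, 117, 113 and 119 in Sham+pimobendan, 133.5, 119.4 and 126 in TAC+control, against 116, 111 and 113 in TAC+pimobendan. Every TAC+pimobendan mouse lay below every TAC+control mouse (a log2 difference of -0.15 ± 0.074, limma adjusted p = 0.206). Its paralog Slc25a13, lower in all Sham+pimobendan than in all Sham+control mice, had 60.2, 64.4 and 64.7 FPKM in Sham+control, 58.5, 58.9 and 57.5 in Sham+pimobendan, 59.3, 63.7 and 62.8 in TAC+control, against 65.3, 72.7 and 59.0 in TAC+pimobendan. Slc25a12 held 65.2% ± 0.96 of the pair in Sham+control and 66.6% ± 0.80 in Sham+pimobendan, then 67.1% ± 2.03 in TAC+control, against 63.4% ± 2.62 in TAC+pimobendan, and the last 2 groups overlapped. The citrate carrier Slc25a1 and the dicarboxylate carrier Slc25a10 were low, between 3.39 and 6.66 FPKM and between 5.13 and 6.84 FPKM. The glutamate carrier Slc25a22 varied widely, from 13.6 to 39.4 FPKM, with both ends outside the pimobendan groups. It was higher in all Sham+pimobendan than in all Sham+control mice (a log2 difference of 0.58 ± 0.26, limma adjusted p = 0.91).

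Slc25a20 takes acylcarnitines into the matrix for fatty acid oxidation. It had 168, 161 and 145 FPKM in Sham+control, 196, 159 and 171 in Sham+pimobendan, 184, 181 and 172 in TAC+control, against 156, 129 and 174 in TAC+pimobendan. TAC+control mice lay above Sham+control mice (log2 fold change 0.18 ± 0.11, limma adjusted p = 0.682), and the 2 TAC groups overlapped (-0.23 ± 0.11, limma adjusted p = 0.194).

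Among carriers of other amino acids and glutathione, 3 of the 6 tested lay lower in all TAC+pimobendan than in all TAC+control mice. Over all genes tested this share was 6.64%, and it was 16.3% under median-ratio scaling. Slc25a39, the glutathione importer of the matrix, had 119.6, 123 and 138 FPKM in Sham+control, 118, 129 and 141 in Sham+pimobendan, 132, 144 and 130.1 in TAC+control, against 115.5, 98.2 and 107 in TAC+pimobendan. The TAC+pimobendan mice were the 3 lowest of all 12. The log2 fold change was -0.34 ± 0.090 against TAC+control (95% confidence interval -0.53 to -0.14, limma adjusted p = 0.053). Against Sham+pimobendan it was -0.27 ± 0.090 (limma adjusted p = 0.0939), and the interaction was -0.36 ± 0.13 (limma adjusted p = 0.142). With each library's GC trend removed these values were -0.31, -0.14 and -0.27. Slc25a29, which carries basic amino acids, had 7.25, 5.78 and 9.53 FPKM in Sham+control, 5.37, 5.00 and 6.90 in Sham+pimobendan, 9.79, 12.8 and 9.76 in TAC+control, against 7.59, 6.95 and 7.24 in TAC+pimobendan. TAC+control mice were the 3 highest of all 12, with a log2 fold change of 0.48 ± 0.16 against Sham+control (limma adjusted p = 0.534) and -0.50 ± 0.16 for pimobendan after TAC (limma adjusted p = 0.0777). TAC+pimobendan mice still lay above Sham+pimobendan mice (0.30 ± 0.16, limma adjusted p = 0.286).

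Slc25a38, which imports glycine for heme synthesis, was lower in every mouse with pimobendan than in every control mouse. It had 19.1, 22.6 and 20.3 FPKM in Sham+control, 16.0, 17.4 and 16.2 in Sham+pimobendan, 18.8, 20.04 and 19.2 in TAC+control, against 16.9, 15.8 and 15.2 in TAC+pimobendan. The log2 fold change was -0.30 ± 0.085 with the drug after sham (95% confidence interval -0.49 to -0.12, limma adjusted p = 0.91) and -0.26 ± 0.085 after TAC (95% confidence interval -0.45 to -0.079, limma adjusted p = 0.0806). Summed red cell markers, given above, overlapped between the sham groups and were lower in TAC+pimobendan than in TAC+control, and their part in the values of Slc25a38 was not tested. The other tested members of this class, Slc25a44 for branched-chain amino acids, Slc25a15 for ornithine and Slc25a40, ran from 8.91 to 10.7, from 3.70 to 5.22 and from 2.68 to 4.56 FPKM.

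Mitoferrins bring iron into the matrix. Slc25a28, the form of most tissues, had 28.8, 28.6 and 22.7 FPKM in Sham+control, 28.4, 26.9 and 23.9 in Sham+pimobendan, 22.5, 27.0 and 28.3 in TAC+control, against 24.1, 24.2 and 26.1 in TAC+pimobendan, with overlap between all groups. Slc25a37, the form that supplies developing red cells, had 6.90, 5.50 and 5.94 FPKM in Sham+control, 5.09, 5.54 and 5.13 in Sham+pimobendan, 5.35, 5.33 and 5.83 in TAC+control, against 5.90, 6.79 and 6.29 in TAC+pimobendan. TAC+pimobendan mice lay above TAC+control (a log2 difference of 0.17 ± 0.10, limma adjusted p = 0.294), and red cell markers lay below it. The difference was 0.069 under median-ratio scaling, 0.052 with the GC trend removed and 0.0012 under quantile normalization. Slc25a28 held between 78.1% and 84.8% of the FPKM of the pair.

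Carriers of cofactors and nucleotides were of middling level. The pyrimidine nucleotide carrier Slc25a36 (NCBI Gene 192287; chromosome 9, 97075281 to 97111041) had 11.25, 9.56 and 8.32 FPKM in Sham+control, 7.77, 8.49 and 7.37 in Sham+pimobendan, 8.53, 8.36 and 9.12 in TAC+control, against 9.39, 11.5 and 14.4 in TAC+pimobendan. TAC+pimobendan mice lay above TAC+control and Sham+pimobendan and overlapped Sham+control. The log2 fold change was 0.51 ± 0.14 for TAC under pimobendan (95% confidence interval 0.21 to 0.81, limma adjusted p = 0.0532) and 0.38 ± 0.14 for pimobendan after TAC (limma adjusted p = 0.107). The interaction, 0.65 ± 0.20, had the smallest p among members and did not pass (95% confidence interval 0.22 to 1.07, limma adjusted p = 0.109). With each library's GC trend removed these 3 values were 0.17, 0.064 and 0.23; the longest transcript of Slc25a36 has a GC content of 40.7%, against a median of 50.0% over the 38 members. Its paralog Slc25a33 had 12.7, 25.4 and 15.6 FPKM in Sham+control, 21.35, 14.3 and 12.5 in Sham+pimobendan, 7.95, 14.9 and 15.3 in TAC+control, against 17.15, 17.8 and 9.70 in TAC+pimobendan. All groups of Slc25a33 overlapped, and its pooled SD within groups of 0.45 on the log2 scale was the second highest of the 38. Its share of the pair ran from 40.2% to 73.3%.

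Slc25a42, which brings coenzyme A into the matrix, had 37.6, 30.7 and 35.5 FPKM in Sham+control, 46.2, 41.9 and 38.8 in Sham+pimobendan, 33.4, 36.5 and 35.85 in TAC+control, against 42.1, 33.9 and 42.35 in TAC+pimobendan. Every Sham+pimobendan mouse lay above every Sham+control mouse (log2 fold change 0.28 ± 0.11, 95% confidence interval 0.051 to 0.52, limma adjusted p = 0.91), and the TAC groups overlapped. Slc25a16 (10.2 to 15.3 FPKM; log2 fold change 0.30 ± 0.12, limma adjusted p = 0.131) was higher in all TAC+pimobendan than in all TAC+control mice. The NAD carrier Slc25a51 ran from 16.55 to 21.7 FPKM, the S-adenosylmethionine carrier Slc25a26 from 14.25 to 19.8, the peroxisomal Slc25a17 from 8.76 to 11.6 and the folate carrier Slc25a32 from 1.5 to 3.52. Uncoupling-protein-like members were low, with Slc25a30 between 1.92 and 3.60 FPKM, Slc25a27 between 1.21 and 2.11 and Slc25a14 between 0.71 and 1.79.

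Of the tested members without an assigned class, Slc25a34 was the highest. It had 106.5, 109 and 74.4 FPKM in Sham+control, 159, 105 and 98.3 in Sham+pimobendan, 70.3, 103 and 92.0 in TAC+control, against 97.6, 92.25 and 106.9 in TAC+pimobendan, and the groups overlapped. Slc25a46, of the outer membrane, ran from 14.7 to 24.3 FPKM, Slc25a35 from 4.85 to 7.53, Slc25a45 from 2.21 to 3.95 and Slc25a47 from 1.88 to 3.57. Every TAC+pimobendan mouse lay below every TAC+control mouse for Slc25a35.

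**Figure D3:**
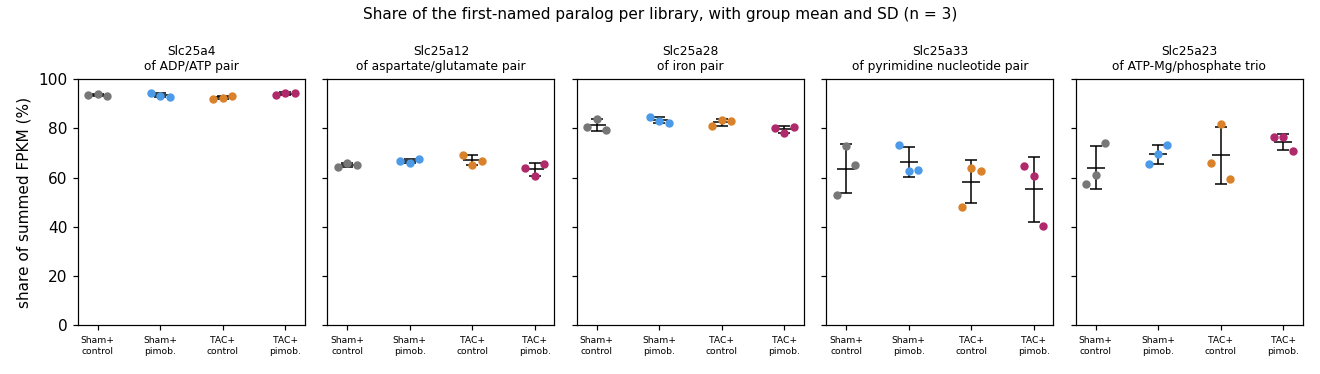
Share of the first-named paralog in the summed FPKM of its pair or trio, in percent from 0 to 100, with each point 1 mouse and the group mean and SD (n = 3) in black. Slc25a4 stays between 92.1% and 94.5% in all mice, while the share of Slc25a33 runs from 40.2% to 73.3%.

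Of 38 members, 9 (23.7%) lay lower without overlap in TAC+pimobendan than in TAC+control, beside 6.64% of all genes tested. In the same comparison 4 (10.5%) lay higher, beside 23.3%. Among the 9 were Slc25a3, Slc25a5, Slc25a11, Slc25a12, Slc25a29, Slc25a35, Slc25a38 and Slc25a39, and the 4 were Slc25a16, Slc25a24, Slc25a36 and Slc25a37. Between TAC+control and Sham+control, 4 members (10.5%: Slc25a3, Slc25a5, Slc25a20 and Slc25a29) lay higher, beside 3.00% of all genes, and 0 lay lower, beside 9.74%. Both comparisons use the TAC+control mice with opposite signs. After sham 3 members (Slc25a17, Slc25a22 and Slc25a42) lay higher with the drug, beside 6.16%, and 2 (Slc25a13 and Slc25a38) lower, beside 4.98%, and under pimobendan 4 lay higher after TAC (beside 18.6%) and 5 lower (beside 9.35%). After scaling by median ratios the counts for pimobendan after TAC were 11 lower and 1 higher, beside 16.3% and 12.6% of all genes. On TPM 7 lay lower (18.4% of members, beside 3.1%) and 6 higher (15.8%, beside 30.7%). Under quantile normalization 9 lay lower (23.7%, beside 12.1%) and 1 higher (2.63%, beside 10.4%). With the GC trend removed 12 lay lower (31.6%, beside 12.9%) and 1 higher (2.63%, beside 10.9%). On TPM the counts for TAC without drug were 2 higher (5.26% of members, beside 1.71% of all genes) and 3 lower (7.89%, beside 12.9%). Higher counts were 5 under median-ratio scaling (13.2%, beside 7.69%) and 5 under quantile normalization (13.2%, beside 5.63%). With the GC trend removed 7 lay higher (18.4%, beside 7.41%). In these last settings 0 lay lower, beside 5.68%, 4.56% and 6.69% of all genes.

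Median log2 fold changes of the 38 members stayed near 0. For TAC without drug the median was 0.019. Pimobendan gave 0.025 after TAC and -0.0030 after sham. It was -0.035 both for TAC in drug-treated mice and for the interaction. Over all genes tested, in this order, the medians were -0.057, 0.095, 0.013, -0.0061 and 0.066. The members had positive values in 21, 21, 19, 14 and 18 cases, or 55.3%, 55.3%, 50%, 36.8% and 47.4%, against 34.9%, 66.0%, 53.7%, 49.0% and 59.0% of all genes. For pimobendan after TAC, abundant members had the lower values. Spearman's rho between mean FPKM and log2 fold change was -0.43 across the 38 and -0.37 across all genes tested. For TAC without drug, abundant members had the higher values, with rho of 0.44 across the 38 and 0.30 across all genes tested. Both comparisons use the TAC+control mice with opposite signs. Genes are not independent replicates, and all points of a comparison share the same 6 libraries.

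**Figure D4:**
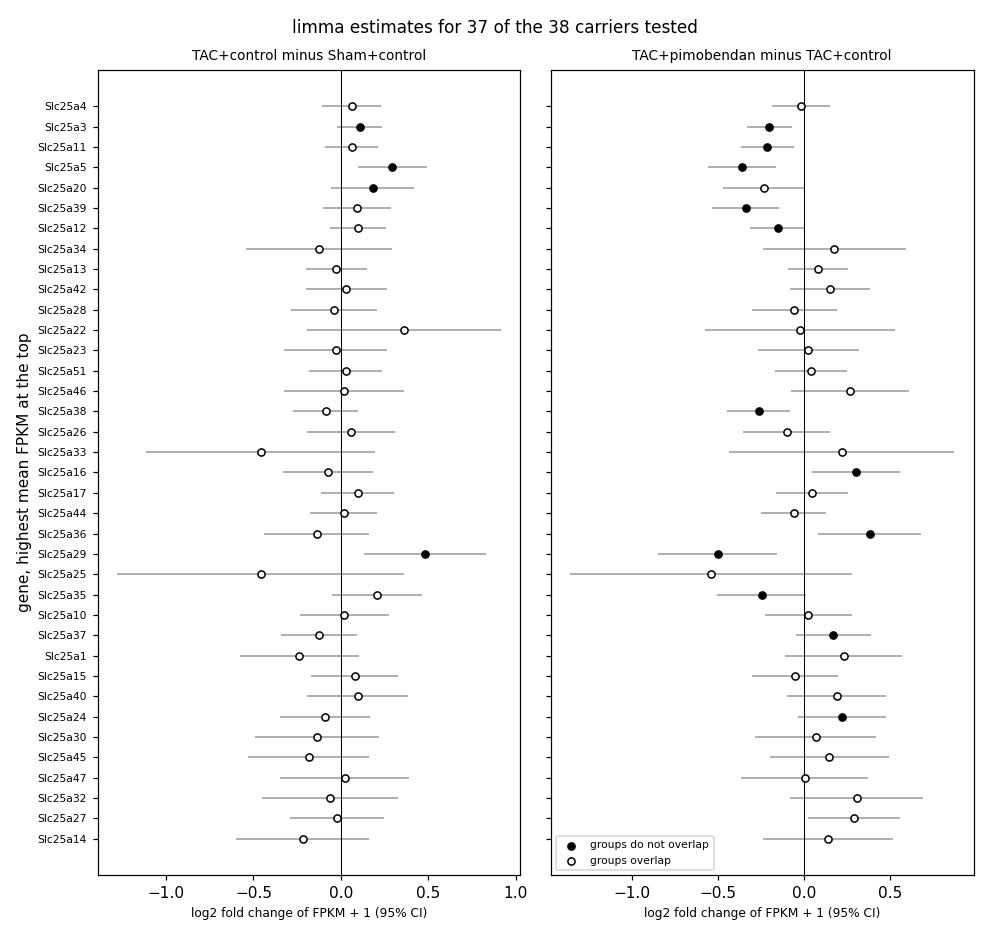
Log2 fold change of FPKM + 1 with its 95% confidence interval for 37 of the 38 tested members, ordered by mean FPKM, for TAC without drug (left) and pimobendan after TAC (right). Filled points mark members whose groups did not overlap, 4 on the left and 12 on the right, where 8 lie below 0; both panels share the TAC+control mice.

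GC content moved with the fold changes of the carriers as with those of other genes. Across the 38 members rho between GC content and the log2 fold change for pimobendan after TAC was -0.39, and across 11334 genes it was -0.48. With the GC trend of each library removed, rho over the members was 0.12. Slc25a16 then stood nearer to 0 at 0.055, as did Slc25a36 at 0.064. Slc25a3, also of low GC content, stood farther from 0 at -0.44, as did Slc25a12 at -0.31, and Slc25a5 stood at -0.47, Slc25a29 at -0.47, Slc25a39 at -0.31 and Slc25a11 at -0.22. No gene was called in any comparison on these adjusted values, and the smallest adjusted p of Slc25a5 over all alternatives, leaving out libraries included, was 0.041.

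**Figure D5:**
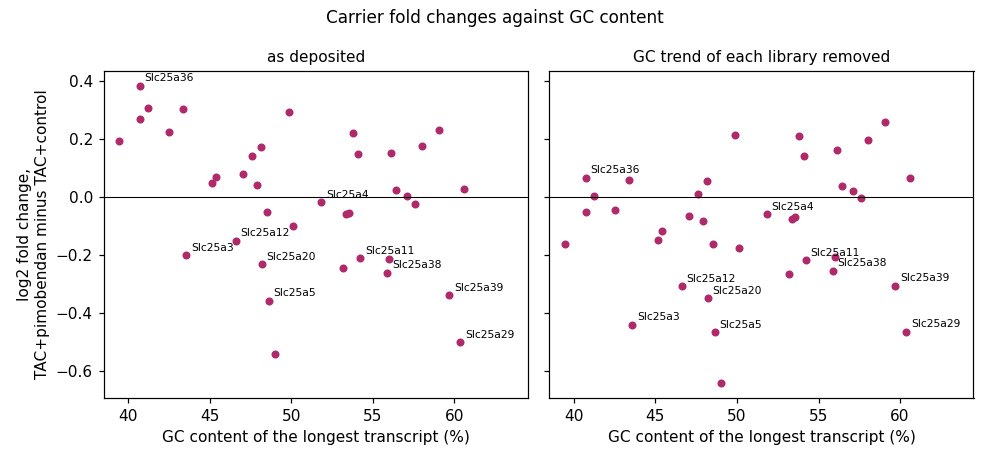
Log2 fold change of the 38 tested members for TAC+pimobendan minus TAC+control against the GC content of the longest transcript, on deposited values (left, rho -0.39) and with each library's GC trend removed (right, rho 0.12). Each point is 1 gene, and Slc25a36 moves from 0.38 to 0.064.

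Genes that work with the carriers were read from lists. Beside their counts, limma called 0% to 4.89% of all genes in the 5 comparisons. Of 4 family members with other symbols (Ucp2, Ucp3, Mtch1 and Mtch2) 0 passed limma in any comparison. The uncoupling protein Ucp3 had 24.7, 19.1 and 12.5 FPKM in Sham+control, 46.7, 44.6 and 23.5 in Sham+pimobendan, 26.2, 14.1 and 21.5 in TAC+control, against 30.6, 22.4 and 37.1 in TAC+pimobendan, with log2 fold changes of 0.97 ± 0.30 for the drug after sham and 0.53 ± 0.30 after TAC (limma adjusted p = 0.91 and 0.276). Of 11 genes of the import machinery for carriers, 0 passed. For pimobendan after TAC 8 were negative, with Timm13 at -0.32 ± 0.11 (limma adjusted p = 0.0958). The other 3 were positive, with Tomm70a at 0.25 ± 0.12 (limma adjusted p = 0.196). Of 9 enzymes of the carnitine system and the malate-aspartate shuttle, 0 passed, and for pimobendan after TAC 8 were negative. Cpt1b, which makes the acylcarnitines that Slc25a20 carries, stood at -0.27 ± 0.077 (limma adjusted p = 0.0623). The malate dehydrogenase Mdh2 stood at -0.22 ± 0.077. For TAC without drug, which uses the same TAC+control mice, 9 of the 11 and 7 of the 9 were positive. Over all genes 66.0% were positive for pimobendan after TAC and 34.9% for TAC without drug.

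Of 9 regulators of mitochondrial biogenesis, 2 rose and 0 fell with pimobendan after TAC, beside 3.15% of all genes called higher and 0.114% lower. Gabpa, an ETS factor of nuclear-encoded mitochondrial genes, rose from a mean of 7.64 ± 0.37 FPKM to 11.9 ± 1.07 (SD, n = 3), a log2 fold change of 0.58 ± 0.12 (limma adjusted p = 0.0409), and rose with TAC under pimobendan as well (0.55 ± 0.12, limma adjusted p = 0.0342). Esrrg, an oestrogen-related nuclear receptor, rose from 5.96 ± 0.57 to 9.31 ± 0.63 FPKM (0.57 ± 0.12, limma adjusted p = 0.0409). The longest transcripts of Gabpa and Esrrg have GC contents of 41.4% and 42.5%. With the replicate number as a block neither passed for pimobendan after TAC (limma adjusted p = 0.0788 for each), nor did Gabpa for TAC under pimobendan (limma adjusted p = 0.0652). With the block limma made 1 call over all genes in the first comparison, against 373 without it, and 0 in the other, against 558. With the GC trend removed their values for pimobendan after TAC were 0.28 and 0.30 and did not pass, and after scaling by median ratios limma called 0 genes in that comparison. Over all genes that comparison had 373 calls with all libraries, 1187 without TAC+pimobendan replicate 1, and 0 without TAC+control replicate 3 or TAC+pimobendan replicate 2, so these calls depend on single libraries too.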

How the data were processed

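Left ventricular RNA was selected with oligo(dT) and sequenced, per the labels' protocols, with a separate mouse for each library. The authors deposited one table with an FPKM and a TPM value per gene and library. RSEM 1.2.12, Bowtie2 2.2.5, DESeq2 1.4.5 and HISAT2 2.0.4 appear, without roles, per the submitters' processing notes. Genes reaching 1 FPKM in 3 or more libraries were tested with limma 3.58.1 (R 4.3.3) on log2(FPKM + 1), in a single fit of all 12 libraries with a mean-variance trend and 8 residual degrees of freedom. Fold changes on this scale understate changes of low genes. The fit was tested on simulated data. Alternatives were TPM, median-ratio and quantile scaling, removal of each library's GC trend, other filters, a pseudocount of 0.1, a replicate block, fits of the compared groups only and leaving out each library. Values are given for every library for the 10 highest members, the 2 with the smallest p in each comparison and 5 sets of paralogs; Slc25a22 and other members with only a range were picked out after their values were seen. Members and lists were chosen with earlier results of these data known. Promoters are from RefSeq, GRCm38.p6. A few items, among them 1 tested member, are not reported here by name. Deviations from group means correlated positively in all 3 same-numbered pairs of TAC+control and TAC+pimobendan (r = 0.154, 0.208 and 0.101). In no other pair of groups were all 3 over 0.1 (r from -0.44 to 0.253 over all 18 same-numbered pairs). Differently numbered libraries reached r = 0.434 (Sham+control replicate 2 with Sham+pimobendan replicate 1). Of 12 libraries, 2 correlated best with their own number. The labels state no pairing, and these values do not settle whether there was one.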

Additional observations from a re-analysis of the deposited data

How the results depend on the processing

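The number of members called differed from 0 in few alternatives. For pimobendan after TAC it was 1 on TPM, beside 9.69% of all genes. With a filter on a mean of at least 1 FPKM it was 1, beside 3.71% (Slc25a5 in both). It was 0 to 4 with 1 library left out, beside 0% to 10.4%. For TAC under pimobendan it was 1 on TPM (Slc25a36), beside 6.08%, and 0 to 1 with 1 library left out, beside 0% to 10.7%. For the interaction it was 0 to 1 with 1 library left out, beside 0% to 6.78%. The cause was not tested. Fits with the replicate number as a block called 0 members in each of the 5 comparisons, and 1 gene of all in pimobendan after TAC. The block changed no other call of a gene named here than those of Gabpa and Esrrg. Over all genes, the 373 calls for pimobendan after TAC became 1170 on TPM, 0 under median-ratio scaling, quantile normalization, GC trend removal, no filter or the compared groups alone, and 0 to 1187 with 1 library left out. The 558 calls for TAC under pimobendan became 356 under median-ratio scaling, 295 under quantile normalization, 0 with the GC trend removed, no filter, the block or the compared groups alone, and 0 to 1222 with 1 library left out. The interaction reached 772 calls without TAC+pimobendan replicate 1. The median log2 fold change of all genes for pimobendan after TAC shifted by -0.10 under median-ratio scaling and by -0.12 under quantile normalization.

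Of 626 alternative values for 30 pairs of a member and a comparison, 607 kept their direction and their side of the threshold, 13 passed it and 6 changed sign. Slc25a4 for pimobendan after TAC was 0.084 under quantile normalization, 0.054 on TPM, 0.00023 without TAC+control replicate 2 and from -0.064 to 0.039 with 1 library left out, the highest without TAC+pimobendan replicate 1. Slc25a3 for TAC without drug was -0.0018 under quantile normalization, and Slc25a33 for pimobendan after TAC ran from -0.061 (without TAC+control replicate 1) to 0.48. With no counts, depth sets no stated limit; for most members differences within 0.26 on the log2 scale were not resolved.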
